A study of Homo sapiens with 14 samples.

Results

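Distal H3K27ac regions without p-JUN were examined in LX-2, an immortalised line derived from human hepatic stellate cells. CUT&Tag, which cuts DNA out of permeabilised cells with a transposase tethered to an antibody and sequences the fragments, was used in wild-type cells after 2 days of culture on a soft or a stiff matrix. The H3K27ac peaks of both matrices were merged where they shared at least 1 bp, which gave 20403 regions (7144 soft-only, 2215 stiff-only and 11044, or 54.1%, called in both). Of these, 13111 lay more than 3 kb from every transcript start of a protein-coding gene, and 1012 of the distal regions, or 7.72% (95% Wilson interval 7.27 to 8.19), overlapped no peak in any of 4 p-JUN lists. Of all 20403 regions, promoters included, 8.91% overlapped none. The regions were thus chosen by the H3K27ac and p-JUN peak calls themselves, and every value of these calls is given as a description. These 1012 p-JUN-free regions fell into 560 called in the soft list only, 197 called in the stiff list only and 255 called in both. For H3K27ac a single merged list was used for each matrix, which leaves the spread between its replicates unknown. H3K4me3, H3K27me3 and p-JUN had 2 libraries per matrix. The labels do not say whether the replicates were separate cultures, so the spread between them may be technical. The stiff libraries of the histone marks were titled 40K, whereas the p-JUN libraries labelled stiff were titled TCP, the study's term for culture plastic. Whether those p-JUN cells were on the same matrix as the H3K27ac cells cannot be told from the labels.

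H3K27ac is deposited on nucleosomes at active promoters and enhancers, and away from promoters it is widely used to mark active enhancers. JUN is a subunit of AP-1, a dimeric transcription factor that binds TGACTCA or TGAGTCA and whose activity rises when JUN is phosphorylated. In hepatic stellate cells AP-1 is known as a regulator of the switch from the quiescent, vitamin A-storing state to the collagen-producing myofibroblast, and it binds many active enhancers of fibroblast-like cells.

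The summits of 7 p-JUN-free regions are shown because the results below turn on them. Each line gives 121 bases around the H3K27ac summit on the plus strand of hg19, named by the gene with the nearest protein-coding start. Capitals mark AP-1 matches (TGACTCA or TGAGTCA) and matches to an NF-kB pattern (GGGA and TTCC with any 2 bases between them, on either strand). The TYW1 and FAT3 regions were among the strongest called on both matrices and DOCK2 among the strongest stiff-only regions.
TYW1, both, chr7:66490547-66490667: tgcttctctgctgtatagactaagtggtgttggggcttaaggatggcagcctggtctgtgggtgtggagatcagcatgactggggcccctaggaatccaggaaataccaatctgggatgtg
FAT3, both, chr11:91914029-91914149: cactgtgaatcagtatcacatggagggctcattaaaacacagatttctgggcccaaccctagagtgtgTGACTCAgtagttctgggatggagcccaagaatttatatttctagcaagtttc
DOCK2, stiff-only, chr5:169184100-169184220: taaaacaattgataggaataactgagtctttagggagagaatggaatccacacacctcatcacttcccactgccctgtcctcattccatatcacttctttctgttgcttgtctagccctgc
The next 4 carried a motif match: NEU3 for AP-1, PIM3 and FKSG48 for NF-kB, and C17orf78 for both. FKSG48 was also among the strongest soft-only regions.
NEU3, soft-only, chr11:74741423-74741543: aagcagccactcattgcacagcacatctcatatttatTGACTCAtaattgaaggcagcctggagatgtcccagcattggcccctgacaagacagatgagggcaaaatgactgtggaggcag
PIM3, both, chr22:50346023-50346143: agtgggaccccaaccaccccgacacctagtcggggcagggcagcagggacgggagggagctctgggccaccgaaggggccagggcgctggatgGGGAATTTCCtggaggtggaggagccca
FKSG48, soft-only, chr1:33458204-33458324: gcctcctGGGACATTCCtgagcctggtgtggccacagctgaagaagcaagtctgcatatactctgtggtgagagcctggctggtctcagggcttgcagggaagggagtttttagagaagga
C17orf78, soft-only, chr17:35745271-35745391: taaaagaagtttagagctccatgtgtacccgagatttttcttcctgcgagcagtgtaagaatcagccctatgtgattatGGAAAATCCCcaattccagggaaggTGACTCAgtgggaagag

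The lists differed in length and summit height. H3K27ac had 18238 peaks on soft and 13322 on stiff, and p-JUN had 48163 to 54168 peaks per library. The median summit height, in fragments solved from the fold and p of each peak, was 27 and 26 for H3K27ac and 60 to 64 for p-JUN. Each p-JUN list by itself overlapped 86.0% to 89.1% of the distal H3K27ac regions, and 10835 of the 13111 regions (82.6%) had a peak in all 4 lists.

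To ask where acetylation was found without p-JUN, the p-JUN-free share was compared between regions called on one matrix and on both. As the calls define these groups, the shares are descriptions and carry no test. Regions called on both matrices lacked p-JUN least often, at 3.63% (3.21 to 4.09, 255 of 7030). The share was 12.2% for soft-only regions (11.3 to 13.2, 560 of 4573) and 13.1% for stiff-only regions (11.5 to 14.9, 197 of 1508). The soft-only and stiff-only intervals overlapped, and both lay above the interval of the shared regions. Soft-only regions made up 55.3% of the p-JUN-free regions beside 34.9% of all distal regions, stiff-only regions 19.5% beside 11.5%, and regions on both matrices 25.2% beside 53.6%. Soft-only regions outnumbered stiff-only regions, and the soft list was the longer one. When both lists were cut to equal length, the p-JUN-free regions were 228 soft-only and 280 stiff-only. Such a cut by itself brings the numbers of soft-only and stiff-only regions close together. Why the soft list was longer was not tested.

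**Figure D1:**
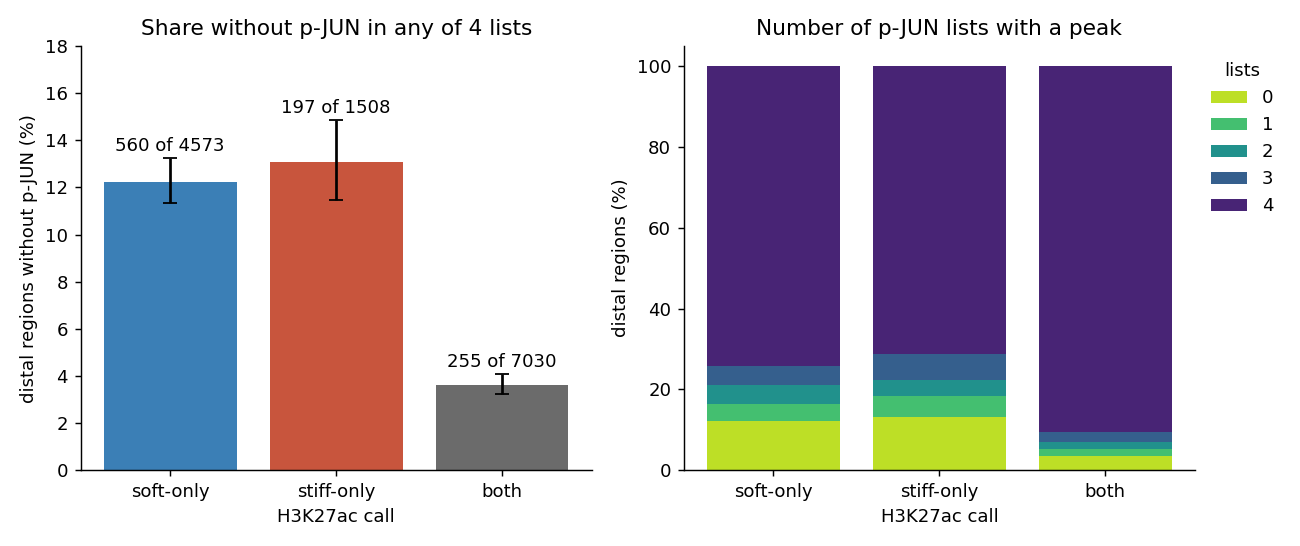
Left, percentage of distal H3K27ac regions without a p-JUN peak, by H3K27ac call, with 95% Wilson intervals and counts. Right, percentage of the same regions by the number of p-JUN lists (0 to 4) that held a peak. The shares without p-JUN are 12.2%, 13.1% and 3.63%, and 90.6% of the regions called on both matrices had p-JUN in all 4 lists.

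Further distal regions had p-JUN in some of the lists only. Exactly 1 list held a peak at 384 distal regions (2.93%), 2 lists at 388 (2.96%) and 3 lists at 492 (3.75%), beside 1012 (7.72%) with none. Which regions counted as p-JUN-free therefore depended on the lists used. Taking the soft p-JUN lists alone left 14.6% of soft-only and 18.4% of stiff-only regions without p-JUN. Taking the lists labelled stiff alone left 16.1% and 14.99%. The single libraries did not separate by label. Soft p-JUN libraries overlapped 82.7% and 81.2% of the soft-only regions and those labelled stiff 78.5% and 82.1%, beside 79.0% and 76.7% against 78.1% and 83.8% of the stiff-only regions.

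The edges of both thresholds were populated. The p-JUN-free regions nearest to a coding start lay at 3016, 3026 and 3030 bp, and the p-JUN-free regions just inside the excluded distance lay at 2862, 2919 and 2969 bp. The regions closest to a p-JUN peak without touching it lay 5, 6 and 8 bp away, and the distal regions with the smallest overlap shared 1, 1 and 2 bp with a peak. Such near misses were a small part of the set. Of the 1012 regions, 14 lay within 100 bp of a p-JUN peak and 61 lay more than 100 kb from any. The median distance to the nearest p-JUN peak was 8432 bp, with 8661 bp for soft-only, 5599 bp for stiff-only and 8716 bp for shared regions. Within 1 kb of p-JUN lay 46 of the 197 stiff-only regions (23.4%), 73 of the 560 soft-only regions (13.04%) and 31 of the 255 shared regions (12.2%).

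Acetylation was weaker at shared regions where p-JUN was missing. Their median summit height was 25 fragments on soft and 22 on stiff, beside 34 and 29 in shared distal regions with p-JUN. The medians were 18 beside 21 fragments in soft-only regions and 19 beside 19 in stiff-only regions. The p-JUN-free regions had a median length of 333 bp against 360 bp with p-JUN in the soft-only class, 337 bp against 347 bp in the stiff-only class and 545 bp against 632 bp in the shared class. In the soft list the p-JUN-free share ran from 19.2% of distal regions with fewer than 15 summit fragments (187 of 974) to 1.63% of those with 60 or more (15 of 919). In the stiff list it ran from 14.8% (90 of 608) to 1.17% (6 of 515). How far low height alone set the calls was not tested. The shares were also compared within ranges of height. With 20 to 29 fragments, 9.62% of soft-only regions (8.27 to 11.2, 153 of 1590) and 4.90% of shared regions (4.03 to 5.96, 95 of 1938) lacked p-JUN in the soft list. In the stiff list the values were 12.8% of stiff-only regions (10.2 to 16.0, 64 of 500) and 3.58% of shared regions (2.91 to 4.40, 86 of 2403). Below 20 fragments in the stiff list the intervals overlapped, at 16.2% (12.6 to 20.5) and 13.2% (9.74 to 17.7) for fewer than 15 fragments and 10.4% (7.91 to 13.5) and 6.59% (5.18 to 8.34) for 15 to 19.

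**Figure D2:**
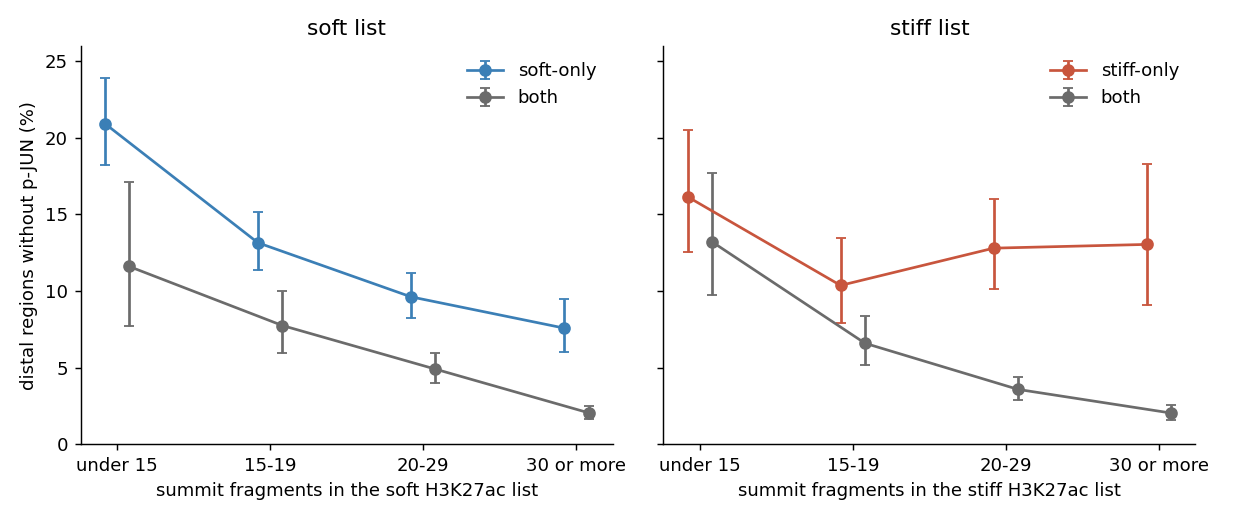
Percentage of distal H3K27ac regions without p-JUN against the number of summit fragments, in the soft list (left) and the stiff list (right), with 95% Wilson intervals. In shared regions the share runs from 11.6% to 2.05% in the soft list and from 13.2% to 2.03% in the stiff list, where the last range, 30 fragments or more, has no upper limit. Stiff-only regions stay between 10.4% and 16.2%.

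The p-JUN-free regions resembled other distal regions in their place in the genome. They lay in introns of protein-coding genes in 48.4% of cases, between genes in 30.04% and in introns of non-coding genes in 15.3%. For distal regions with p-JUN these shares were 46.0%, 32.6% and 14.3%. The start of some transcript, coding or not, lay within 1 kb of 14.2% of the p-JUN-free regions and 13.1% of those with p-JUN. Median GC content within 150 bp of the summit was 47.5% and 47.8%. By chromosome, the p-JUN-free share of distal regions was highest on chromosome 22 at 13.8% (10.1 to 18.5, 36 of 261), with 11.9% on X (8.53 to 16.4, 31 of 260). It was lowest on chromosome 8 at 4.05% (2.61 to 6.24, 19 of 469).

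Most regions stood alone at their gene. In all, 874 protein-coding genes were nearest to at least 1 p-JUN-free region, and 772 of them to exactly 1. The largest group had its nearest coding start at AUTS2, a regulator of neuronal genes that acts with Polycomb proteins. In this group 9 of 12 distal regions were p-JUN-free. TYW1, an enzyme of tRNA modification on the same arm of chromosome 7, had 5 of 9. The nearest start could be far away. The p-JUN-free regions lay 23969 to 906037 bp from that of AUTS2 and 28370 to 1272499 bp from that of TYW1. The AUTS2 group contained 3 regions called on both matrices within 15.2 kb at chr7:68156411-68171641. They lay between genes, 891641 to 906037 bp from the AUTS2 start. Their summit heights were 45, 44 and 32 fragments on the soft matrix and 35, 27 and 34 on the stiff one. The density of p-JUN peaks around such groups is only a description, as the groups were named for their regions without p-JUN. The stretch of 1.96 Mb that held the AUTS2 regions had 2.04 to 2.55 p-JUN peaks per Mb in the 4 libraries, beside 15.56 to 17.50 over the genome. In the TYW1 stretch the density was 6.40 to 7.20 peaks per Mb.

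Density differed among the other genes of this kind. SEMA5A, an axon guidance semaphorin, had 5 p-JUN-free regions among 21, in a stretch with 32.0 to 38.3 p-JUN peaks per Mb. HS6ST1, a heparan sulfate sulfotransferase, had 4 of 7, in a stretch with 10.7 to 13.4. SOCS6, a member of the suppressors of cytokine signalling, had 4 of 9 at a density of 8.02 to 10.7, all soft-only, of which 3 lay between 594040 and 671337 bp from p-JUN.

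The regions with the highest −log10 q lay near genes of varied function. Among soft-only regions they included a non-coding intron nearest to FKSG48 (57 fragments, −log10 q 22.9) and an intron of PPP2R1B, a scaffold subunit of protein phosphatase 2A (66 fragments, 21.3). Among stiff-only regions they were a region 74259 bp from FAM53A (35 fragments, 20.4), a region in a non-coding intron of LINC00595 nearest to RPS24 (56 fragments, 19.4) and an intron of DOCK2, a Rac activator of blood cells (31 fragments, 18.2). The region nearest to FAM53A lay 316 bp from the start of a transcript that is not protein-coding, and its GC content was 77.4%. The region nearest to RPS24 lay 231799 bp from that gene and held a transcript start of LINC00595. The shared ones included an intron of TYW1 (55 and 50 fragments on soft and stiff) and a region 43701 bp from FAT3, an atypical cadherin (43 and 37 fragments). No H3K4me3 peak overlapped any of these regions.

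Genes of the fibrotic programme were then searched with 6 lists. The p-JUN-free share of all distal regions, 7.72%, is the background for these counts. Of 109 distal regions nearest to extracellular matrix genes, 4 (3.67%, 1.44 to 9.06) lacked p-JUN, and the interval held the background. All 4 were soft-only, as were 55.3% of all p-JUN-free regions. They lay nearest to COL6A3 (28 fragments), which encodes a collagen VI chain, FN1 (14), which encodes fibronectin, POSTN (11), which encodes periostin, and THBS2 (21), which encodes thrombospondin 2. Of 29 regions at contractile and actin genes, 1 (3.45%, 0.611 to 17.2) lacked p-JUN, soft-only at MYH9, the non-muscle myosin IIA heavy chain, with 17 fragments. None of 31 regions at AP-1 family genes and none of 41 at YAP and TEAD pathway genes did, with Wilson upper bounds of 11.03% and 8.57%.

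The TGF-beta pathway had 6 p-JUN-free regions among 74 (8.11%, 3.77 to 16.6), close to the background. Among them, on the ligand side, INHBA, which encodes an activin subunit, had a stiff-only region with 9 fragments, and LTBP1, which binds latent TGF-beta, a soft-only region with 11. TGFBR2, the type II receptor, had a stiff-only region with 23 fragments at 259888 bp from its start. SMAD6, an inhibitor of the pathway, had a soft-only region with 36 fragments. Of 29 regions at genes of stellate identity and quiescence, 2 (6.90%) were p-JUN-free. NGFR, the p75 neurotrophin receptor, had a shared region with 33 fragments on soft and 18 on stiff, and RARB, a retinoic acid receptor, had a soft-only region with 15. The nearest gene need not be the gene that a distal region regulates.

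To ask whether these regions carried promoter-type chromatin, H3K4me3, which the choice of regions did not use, was compared library by library. Of the 1012 regions, 14.4% and 14.5% overlapped an H3K4me3 peak in the libraries from soft matrix, and 12.9% and 14.6% did so in those from stiff matrix. The ranges of the matrices overlapped. The soft and stiff means were 14.5% ± 0.07 and 13.8% ± 1.19 (SD, n = 2 each), a difference of −0.69 points (two-sided exact permutation p = 1; adjusted over 26 comparisons, 1). With 2 libraries against 2 the smallest possible p is 0.333.

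Against distal regions with p-JUN the difference turned with the H3K27ac call. Soft-only p-JUN-free regions overlapped H3K4me3 more often, at 15.4% ± 0.83 against 11.1% ± 0.59 (SD, n = 4 libraries), a difference of 4.32 points. Shared p-JUN-free regions overlapped it less often, at 16.7% ± 1.52 against 23.7% ± 2.08, a difference of −7.07 points. Stiff-only regions had 7.11% ± 0.41 against 8.96% ± 0.88, a difference of −1.86 points. Within the p-JUN-free regions, stiff-only ones had 8.34 points less than soft-only ones. Each of these differences had the same sign in 4 of 4 libraries. All libraries were read over the same regions, so equal signs do not cover the counting error of small classes such as stiff-only. The two-sided exact sign-flip test over libraries gave p = 0.125 for each, the smallest it can give, and 0.325 after Benjamini-Hochberg adjustment over 26 comparisons, so none passed. Over all classes the difference from regions with p-JUN was −3.82 points, and −1.67 points where an H3K4me3 peak had to cover at least 50% of the region (exact sign-flip p = 0.25).

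**Figure D3:**
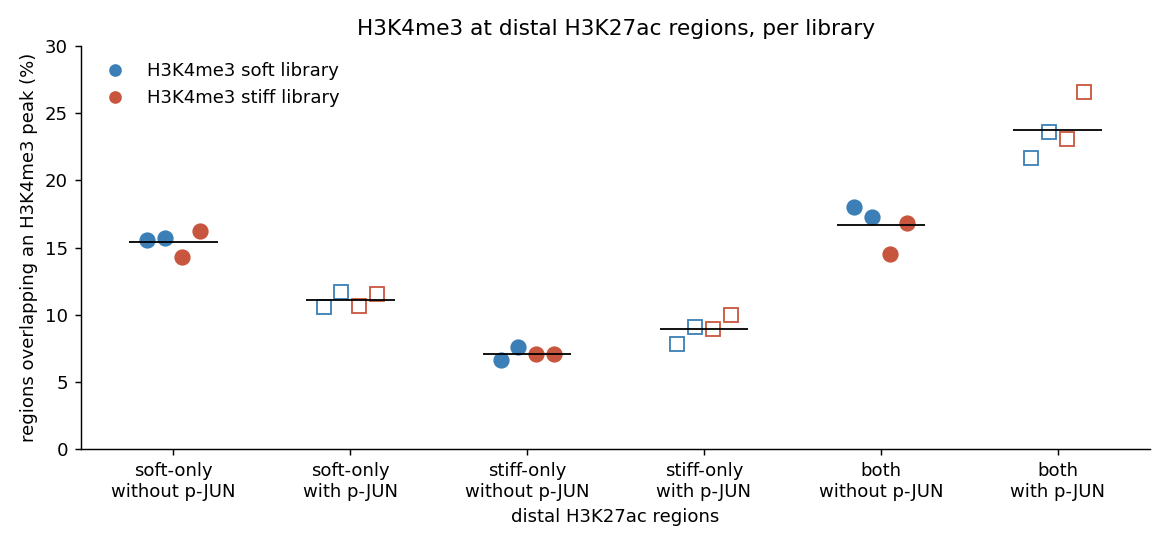
Percentage of distal H3K27ac regions that overlapped an H3K4me3 peak, each point a library (blue soft, red stiff) and each line the mean of 4 libraries; filled circles are regions without p-JUN and open squares regions with p-JUN. In the soft-only class every library lies higher without p-JUN (14.3% to 16.3% against 10.6% to 11.7%), and in the shared class every library lies lower (14.5% to 18.04% against 21.7% to 26.6%).

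A small subset with H3K4me3 in all 4 libraries differed in sequence from the rest. It held 124 regions (12.3%), of which 77 were soft-only, 12 stiff-only and 35 shared, while 845 regions (83.5%) had H3K4me3 in no library. Median GC content was 54.2% in the subset and 47.2% in the 845 regions, and the ratio of observed to expected CpG was 0.41 and 0.16. A transcript start of any kind lay within 1 kb of 43.5% of the subset and 9.94% of the others. The GGGCGG motif of SP and KLF factors lay at 17 of 124 summits (13.7%) and 14 of 845 (1.66%). The same contrast was present in distal regions with p-JUN, where GC content was 55.5% and 47.2% and the GGGCGG share 14.8% and 2.30%. The strongest of the subset by −log10 q lay in an intron of LPIN2, a phosphatidate phosphatase, with 45 fragments on soft and 35 on stiff.

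H3K4me3 height at these regions did not pass a test between matrices. Of 16098 H3K4me3 regions called in all 4 libraries, limma with Benjamini-Hochberg adjustment called 4 higher (0.0248%) and 6 lower (0.0373%) on stiff. None of the 126 that overlapped a p-JUN-free region was called. An unadjusted limma p under 0.05 was found at 45 of the 126 and at 3106 of all 16098. Of the 1482 that overlapped distal H3K27ac with p-JUN, 464 had it. The median log2 difference, stiff over soft and relative to each library's median, was −0.15 at these 126 regions, −0.01 over all regions and −0.13 at the 1482 regions that overlapped distal H3K27ac with p-JUN. The median summit height of the 16098 regions was 134 and 166 fragments in the soft and 171 and 248 in the stiff libraries, and without centring the medians were 0.31 and 0.45. The lowest p-values belonged to regions near PAX8, a paired-box factor, and GAB2, a signalling adaptor. PAX8 had 53 and 68 summit fragments on soft against 41 and 58 on stiff, a centred log2 difference of −0.77 (SE 0.09, limma adjusted p = 0.0554). GAB2 had 30 and 31 against 16 and 27, a difference of −1.02 (SE 0.13, limma adjusted p = 0.0554). The raw fragments of the groups overlapped at PAX8 but not at GAB2.

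The repressive mark H3K27me3 was almost absent. It overlapped 2 of the 1012 regions in a soft library and 1 in each of the other 3 libraries. Both regions were soft-only with 17 fragments, near PPIAL4G in all 4 libraries and near FRG2C in 1, and both genes belong to families of near-identical copies, where placement of reads is uncertain. The mark was rare with p-JUN as well, at 0.405% to 0.636% of distal regions by library. No stiff-only region overlapped H3K27me3 (0 of 197, Wilson upper bound 1.91%), beside 1.30% ± 0.15 of stiff-only regions with p-JUN (SD, n = 4 libraries). Soft-only regions went the other way, at 0.22% ± 0.09 against 0.14% ± 0.06 with p-JUN. Over all distal regions the difference was −0.43 points (exact sign-flip p = 0.125; adjusted, 0.325).

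To ask whether acetylation at the shared regions differed with stiffness, summit fragments were compared between the lists. The median log2 ratio of stiff over soft was 0.03 for the 255 regions, relative to the median of all 11040 regions called on both matrices, with an SD over regions of 0.38. As this rests on 1 list per matrix, the intervals below cover counting error only. They belong to the highest and lowest of the 255 ratios, picked for these same values, and are not adjusted for that choice. They are a description and not a test. At least 2-fold higher on stiff were 2 of 255 regions (0.784%), beside 0.607% of all shared regions, and 1 of 255 (0.392%) was at least 2-fold lower, beside 0.290%. The shares were therefore near the background. ADAMTSL4, which encodes a protein of fibrillin microfibrils, had 19 fragments on soft and 38 on stiff, a centred log2 ratio of 1.21 (95% exact binomial interval 0.38 to 2.09). PIM3, a serine/threonine kinase, had 37 and 67, a ratio of 1.07 (0.47 to 1.69). At GOLGA1, a golgin, the values were 18 and 29, a ratio of 0.90 (0.00018 to 1.83). The lowest ratios were those near KLHDC7B, with 33 and 14 fragments and −1.03 (−2.04 to −0.09), in HSPBAP1, with 30 and 14 and −0.89 (−1.92 to 0.07), and in PLEKHM2, an adaptor of lysosome transport, with 39 and 19 and −0.83 (−1.70 to −0.0021).

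**Figure D4:**
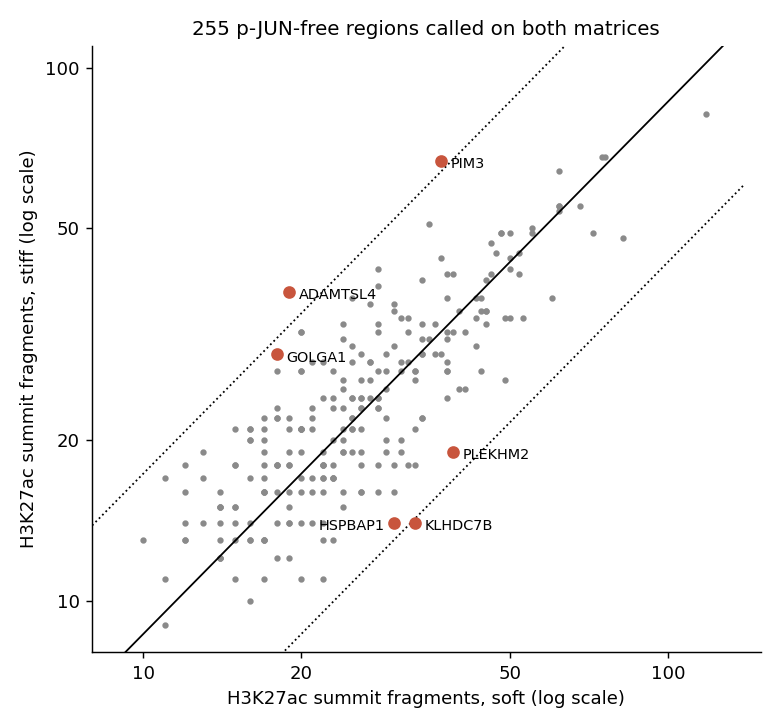
H3K27ac summit fragments on stiff against soft for the 255 p-JUN-free regions called on both matrices, on log axes; each point is a region. The solid line is the median ratio of all 11040 shared regions and the dotted lines a 2-fold difference from it. Of the labelled regions, ADAMTSL4 and PIM3 lie above the upper dotted line and KLHDC7B below the lower one.

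The sequence at the summits was examined because it was not used to choose the regions. The AP-1 motif (TGACTCA or TGAGTCA, within 50 bp of the summit) lay at 44 of the 1012 p-JUN-free regions, or 4.35% (3.25 to 5.79), and at 16.2% of the 12099 distal regions with p-JUN. It lay at 11.6% of all H3K27ac regions and at 2.03% of positions 1 kb from the p-JUN-free summits. Soft-only regions carried it in 5.89% of cases (33 of 560), stiff-only regions in 2.03% (4 of 197) and shared regions in 2.75% (7 of 255). At positions 1 kb away the shares were 2.14%, 2.54% and 1.37%, so the stiff-only share was not above its background. In regions with p-JUN the stiff-only share was also the lowest, at 10.9% beside 16.6% for soft-only and 17.0% for shared regions. Of the 2008 distal regions with the motif, 2.19% lacked p-JUN, beside 7.72% of all distal regions. In the soft list, 14 of the 187 p-JUN-free regions with fewer than 15 fragments had the motif (7.49%). The share was 4.59% for 15 to 19 fragments, 3.63% for 20 to 29, 3.37% for 30 to 39 and 5.77% for 40 to 59. None of the 15 regions with at least 60 had it, which is too few to compare. With p-JUN the share rose from 12.7% to 21.3% over the same ranges. Intervals over regions describe these lists, as regions are not replicates.

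The AP-1 motif without p-JUN was found near genes of varied function. The highest −log10 q per class belonged to ELL, an elongation factor, with 28 fragments, and NEU3, a sialidase of gangliosides, with 50, both soft-only. The corresponding stiff-only regions were weak, at 13 fragments near SEMA3D and 16 near POTEG, a gene with near-identical copies. The shared ones were near FAT3, with 43 and 37 fragments, and FAM3A, with 27 and 24. The NEU3 region lay 478 bp from a p-JUN peak, while FAT3 and SEMA3D lay 43506 and 122282 bp away.

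Of 13 motifs searched on both strands within 50 bp of the summit, AP-1 was the only one more than 2-fold less frequent without p-JUN, apart from the CTCF pattern, which matched too few summits (0 and 12) to compare. In the same window of 50 bp the NF-kB pattern was the only one more than 2-fold more frequent. Within 150 bp its excess was below 2-fold, at 3.16% against 1.68%. It was singled out after its values were seen. It lay at 19 of 1012 p-JUN-free regions, or 1.88% (1.21 to 2.91), against 65 of 12099 with p-JUN, or 0.537% (0.422 to 0.684). It was present at 0.671% of all H3K27ac regions and at 0.247% of positions 1 kb from the p-JUN-free summits. Counted the other way, 22.6% (14.99 to 32.6) of the same 84 distal regions with the pattern lacked p-JUN, beside 7.72% of all distal regions. The share was 1.96% in soft-only, 2.54% in stiff-only and 1.18% in shared regions, on 11, 5 and 3 regions. Split by height, the share was 1.84% (9 of 490) against 0.448% with p-JUN for fewer than 20 fragments. It was 0.949% (3 of 316) against 0.350% for 20 to 29 and 3.59% (7 of 195) against 0.713% for 30 or more. The pattern was picked on these same regions, so the split is a description and adds no independent support. At promoter regions, within 3 kb of a coding start, the shares were 0.497% (0.193 to 1.27, 4 of 805) without p-JUN and 0.755% (0.572 to 0.997) with it, and the intervals overlapped.

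The 19 regions with the NF-kB pattern included several strong ones. TRIM8, a ubiquitin ligase, had a shared intronic region with 76 and 68 fragments on soft and stiff, 817 bp from p-JUN. The PIM3 region described above and a region near RANGAP1, the activator of the Ran GTPase, with 39 and 41 fragments, were the other shared ones. The stiff-only ones were near DAAM2, a formin (37 fragments), AFAP1, an actin-binding protein (34), CDKN2C, an inhibitor of cell-cycle kinases (26), ROBO1, an axon guidance receptor (19), and KCNE2, a channel subunit (12). The strongest of the 11 soft-only ones were near FKSG48 (57 fragments), C17orf78 (32), INSIG1 (27), ANKRD33B (20), CLIP2 (18) and EIF5 (16). The others were near PDE2A (15), IKBKE (15), CEP290 (14), ZNF705A (12) and MRPL19 (10). The regions near C17orf78 and IKBKE also carried the AP-1 motif. Of the 19 regions, 3 had H3K4me3 in all 4 libraries, near CDKN2C, EIF5 and ZNF705A, and the other 16 in none.

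**Figure D5:**
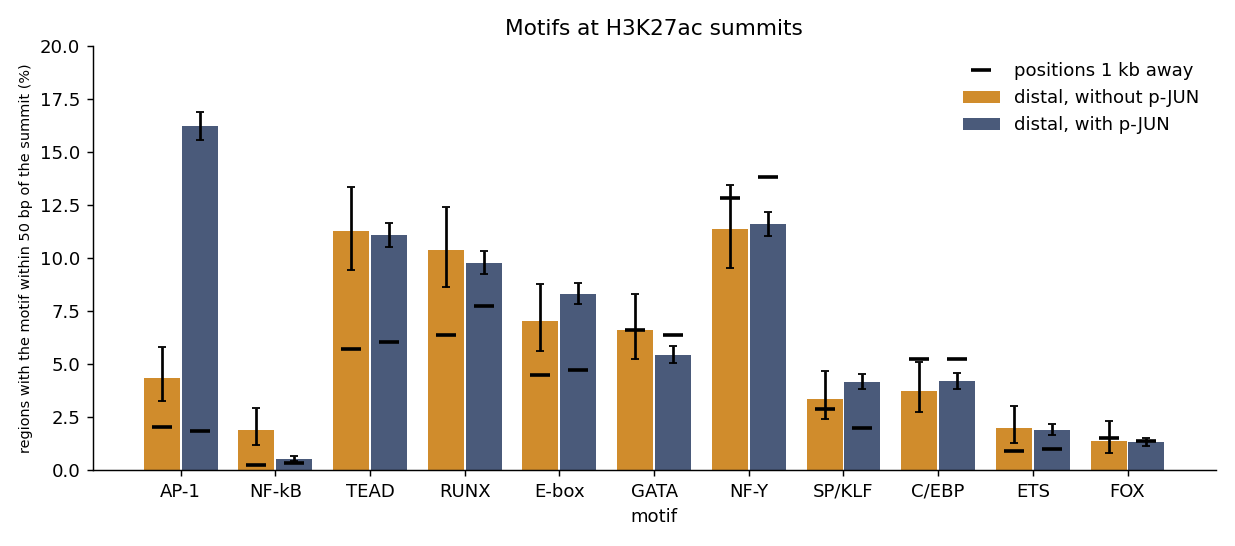
Percentage of distal H3K27ac regions with each motif, other than CTCF and the cyclic AMP response element, within 50 bp of the summit, without and with p-JUN, with 95% Wilson intervals; black dashes give positions 1 kb to each side of the summits. AP-1 is at 4.35% against 16.2% and NF-kB at 1.88% against 0.537%, while TEAD is at 11.3% against 11.1%.

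The other motifs had like shares in both groups. GGAATG, the core of TEAD sites, lay at 11.3% and 11.1% of summits, above the share 1 kb away (5.73% and 6.04%). TGTGGT of RUNX factors lay at 10.4% and 9.77%, CAGCTG, an E-box, at 7.02% and 8.32%, AGATAA of GATA factors at 6.62% and 5.45%, and CCGGAA of ETS factors at 1.98% and 1.91%. CCAAT, bound by NF-Y, lay at 11.4% and 11.6%, below the 12.8% and 13.8% of positions 1 kb away. The remaining patterns were GGGCGG at 3.36% and 4.15%, TTGCNNAA of C/EBP factors at 3.75% and 4.19%, TGTTTAC of FOX factors at 1.38% and 1.32%, and the cyclic AMP response element at 0.0988% and 0.116%. A match says only that these letters are in the window, not that a factor was bound.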

How the data were processed

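Peak lists of 14 CUT&Tag libraries were analysed. Reads were trimmed with Trim Galore, aligned to hg19 with Bowtie2 and marked for duplicates with Picard by the authors, and the peak names contain MACS2. Its version, options and any control are not given in the sources used here. The values deposited by the authors are, per peak, a fold (ratio of summit to local background), −log10 p and q values, and a score derived from −log10 q. Lists of H3K27ac, H3K4me3 and p-JUN held narrow peaks with −log10 q of at least 5.00, and H3K27me3 lists broad peaks. No scaling between lists was applied, and the number of peaks in a list can depend on depth. Total reads were not analysed here.

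Peaks on 24 chromosomes were used. Summit fragments were solved from the fold, taken as fragments plus 1 over background plus 1, and a Poisson tail for p, at a relative error under 1e-04. Whole numbers were found for 99.9% of H3K27ac peaks and all p-JUN and H3K4me3 peaks. Transcript starts were those of GENCODE release 44 on GRCh37. Shares have 95% Wilson intervals, covering counting error only. H3K4me3 heights were tested with limma 3.58.1 on log2 fragments centred on each library's median, with significance at an adjusted p of 0.05. Per-library shares were compared by exact permutation or sign-flip tests. Motif background positions lay 1 kb to each side of a summit. The software was Python 3.11.15 with scipy 1.17.1, pandas 2.3.3, pysam 0.24.0, matplotlib 3.10.9 and numpy 2.4.6, and R 4.3.3. The region, fragment and limma steps were tested on simulated data.

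The regions, gene lists and tests were chosen with earlier results of these data known. Named regions were, per class, the 3 with the highest −log10 q, the 2 with an AP-1 motif and the highest −log10 q, and, for shared regions, the 3 highest and 3 lowest ratios. A further limit to regions mostly free of repeats could not be applied, as the genome used carries no repeat marking, and no sequence from chromosome 8 is shown. Named genes were the nearest coding genes of those regions, the 6 genes nearest to most regions and members of the 6 lists. Some of them are not reported here. The genes with the NF-kB pattern and the strongest H3K4me3 regions were picked after values were seen. Alternatives covered peak thresholds, merging, list length, the distal distance, the p-JUN lists used, motif window, scaling and leaving out single libraries.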

Additional observations from a re-analysis of the deposited data

How the results depend on the processing

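Shared regions lacked p-JUN less often than soft-only and stiff-only regions under every alternative run for these shares. The p-JUN-free share of all, soft-only, stiff-only and shared distal regions was 5.19%, 8.31%, 8.502% and 2.07% with H3K27ac peaks of −log10 q of at least 10, which left 513, 322, 88 and 103 regions. It was 6.13%, 8.94%, 11.3% and 2.84% with lists of equal length, where soft-only regions numbered 228, and 6.57%, 10.6%, 10.01% and 3.19% with no p-JUN allowed within 1 kb. It was 9.03%, 14.1%, 15.2% and 4.42% with p-JUN peaks of −log10 q of at least 10. With 50% reciprocal overlap it was 10.9% for stiff-only and 3.17% for shared regions. Using only the soft p-JUN lists, chosen after seeing the data, gave 9.86%, 14.6%, 18.4% and 4.95%, and only those labelled stiff gave 9.84%, 16.1%, 14.99% and 4.65%. Leaving out 1 p-JUN library can only add regions. It gave 1052 to 1169 regions in all (582 to 635 soft-only, 206 to 243 stiff-only and 263 to 314 shared), and shares of 8.02% to 8.92%, 12.7% to 13.9%, 13.7% to 16.1% and 3.74% to 4.47%.

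Stiff-only regions were fewer than soft-only regions by a log2 ratio of −1.51 without p-JUN and −1.61 with it. Equal list length, which by itself brings the 2 numbers close together, turned the first to 0.30 and brought the second to −0.077. It was −1.24 and −1.17 with reciprocal overlap, −1.87 and −1.91 with the stricter H3K27ac threshold, −1.26 without p-JUN from the soft p-JUN lists alone, and −1.58 to −1.33 and −1.65 to −1.60 without single p-JUN libraries. The cause of these shifts was not tested.

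Replicate numbers did not pair the H3K4me3 libraries (correlation of deviations −0.06), and with the replicate block the H3K4me3 difference between matrices was −0.69 points, that of H3K27me3 −0.05 points, and no H3K4me3 height was called at these regions. Without single libraries the H3K4me3 difference was −1.53 to 0.15 points, turning positive without stiff replicate 1, and that of H3K27me3 −0.10 to 0. The difference from all distal regions with p-JUN was −3.82 points for H3K4me3. It was −2.02 points with H3K4me3 −log10 q of at least 10, −1.67 points (exact sign-flip p = 0.25) with at least 50% of the region covered, both chosen after seeing the data, and −4.41 to −3.37 points without single libraries. That for H3K27me3 was −0.47 to −0.41 points without single libraries. The median H3K4me3 log2 difference was 0.31 without centring and −0.20 to −0.14 without single libraries. None of the 126 regions was called under any scaling or without any library, where the lone library of a matrix was assumed to vary like the others. The H3K27ac ratio of shared regions was −0.18 uncentred. The AP-1 share was 12.7% within 150 bp, beside 39.1% with p-JUN, and 4.23% to 4.46% without single p-JUN libraries. The NF-kB share, an alternative added later, was 3.16% within 150 bp beside 1.68%. Of 206 alternative values, 153 were labelled as the same, 50 as moved and 3 as reversed in sign. The label of the same does not mean a close match. The H3K4me3 difference of −1.67 points, beside −3.82, was given it because its sign was kept.

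A peak absent from a list is a call below its threshold, not absence of the protein or mark. H3K27ac rests on 1 merged list per matrix, and the p-JUN lists labelled stiff carry the TCP title, so matrix and plastic cannot be told apart there. Regions in near-identical copies of a sequence are uncertain.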
